A study of Homo sapiens with 12 samples.

Results

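The genes described here carry the symbols of translation initiation factors and are called initiation factor genes below. Some encode proteins that bind or resemble these factors, such as the eIF4E-binding proteins. Members were taken from the deposited expression table as the protein-coding genes whose symbol begins with EIF and a digit from 1 to 6. The EIF2AK kinases and EIF1AY were left out. The rule found 51 of the 58676 genes in the table, 19821 of them protein-coding, and it used no measured value. Of the 51 members, 46 had a mean of at least 1 FPKM over the libraries and entered the tests. FPKM is fragments per kilobase of gene, scaled to the reads assigned in the library, so it allows levels of different genes to be compared.

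Initiation factors bring the small ribosomal subunit, the initiator methionine tRNA and the capped end of an mRNA together and then find the start codon. eIF4E holds the cap, eIF4G is the scaffold, and the helicase eIF4A unwinds the leader of the mRNA, while eIF2 delivers the initiator tRNA and the multi-subunit eIF3 holds the complex on the small subunit. eIF1, eIF1A, eIF5 and eIF5B govern start codon choice and subunit joining, and stress kinases lower initiation by phosphorylating eIF2.

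The cells were A549, an established human lung carcinoma line, as a control line (Control1) and as 2 NFE2L1 knockout lines (NFE2L1 KO1 and NFE2L1 KO2, here KO1 and KO2). NFE2L1 encodes a transcription factor known for raising proteasome gene expression when the proteasome is inhibited. Each line received DMSO vehicle or 200 nM of the proteasome inhibitor bortezomib for 4 h. This gave 6 groups of 2 libraries, 12 in all. The labels do not say that the 2 libraries of a group came from separate cultures, so p-values may measure only technical spread. The control genotype was 1 line and the knockout 2 lines, so effects of the knockout and differences between lines cannot be told apart. In bulk RNA, fewer cells with a transcript and less of it per cell cannot be told apart either.

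Depth was 13211608 to 23819258 assigned reads per library, with 20713 to 23593 genes above 0. Epithelial keratins were high in every library (KRT8 126 to 703 FPKM, KRT18 112 to 586 FPKM). The epithelial EPCAM (1.25 to 10.6 FPKM) and CDH1 (1.42 to 9.53 FPKM) were low, and the markers of other cell types PTPRC, CD68, PECAM1, VWF and DCN were at or near 0, with COL1A2 at most 0.408 FPKM. COL1A1, another fibroblast gene, ran from 1.42 to 5.18 FPKM in vehicle and from 6.10 to 23.3 FPKM in bortezomib, and the epithelial KRT19 from 8.12 to 17.4 FPKM in control and from 69.8 to 153 FPKM in knockout libraries. Their part in the results was not tested. NFE2L1 was at 72.7 to 189 FPKM in the 4 control libraries and at 8.45 to 50.8 FPKM in the 8 knockout libraries. The group's second library carries the suffix R2 in its title. Its partner carries R1 in the knockout lines and no number in the control line. Mitochondrially encoded genes took 12.3 to 19.3% of reads in the 6 R2 libraries and 5.44 to 6.80% in the 6 partners.

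The R2 libraries stood apart in the initiation factor genes themselves. Members together took 0.936, 0.934 and 0.968% of assigned reads in the vehicle partner libraries of control, KO1 and KO2 cells, against 0.518, 0.483 and 0.568% in the R2 libraries. After bortezomib the shares were 1.11, 1.14 and 1.16% in the partners and 0.608, 0.639 and 0.716% in the R2 libraries. The median difference of the 46 members between R2 and partner ran from -1.05 (KO1 vehicle) to -0.63 (KO2 bortezomib) on the log2(FPKM + 1) scale, where the median over all tested genes ran from -0.34 to -0.11. Within single groups, 41 to 44 of the 46 were lower in R2, against 55.8 to 65.8% of all tested genes. Of the 46, 40 were lower in R2 in each of the 6 groups, a share that was not computed for all genes. EIF4A1 and EIF4A2, which encode the helicase eIF4A, were higher in R2 in each of the 6 groups, by 0.38 to 1.27 and 0.11 to 0.82. Whether the mitochondrial share has a part in this difference was not tested.

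**Figure D1:**
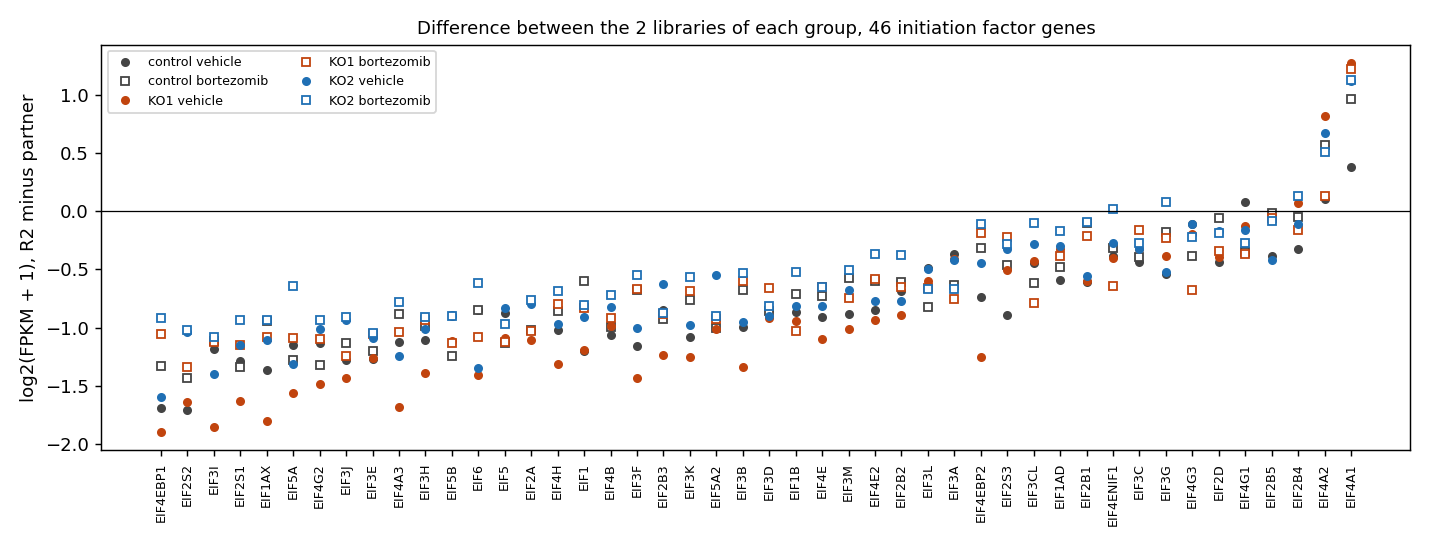
Difference between the R2 library and its partner in each of the 6 groups (y axis, log2(FPKM + 1)) for the 46 tested initiation factor genes (x axis, ordered by their mean). Each point is 1 group; points lie below 0 for 40 genes in all groups and above 0 for EIF4A1 and EIF4A2 in all groups.

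Because the 2 kinds of library differed in this way, each comparison is given from a pair of limma fits over the same 12 libraries. The main fit had 6 group means and no replicate term. The other fit added the replicate suffix as a block (replicate block), and bortezomib effects within a line had the same size in both. "Rose" and "fell" are used below for genes with a Benjamini-Hochberg adjusted p under 0.05 over the 12194 tested genes in the fit with the replicate block, and calls of the main fit are named as such.

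Members ranged widely in level. The mean FPKM over the 6 vehicle libraries ran from 1.01 (EIF3CL) to 149 (EIF5A), with a median over the 46 of 19.7. After EIF5A came the scaffold-related EIF4G2 (102), the eIF2 subunit EIF2S3 (95.98), the scaffold EIF4G1 (94.8) and the eIF4A cofactor EIF4H (91.1). The SD over those libraries was 72.0 FPKM for EIF5A and 45.1 FPKM for EIF4G2. These SDs include the difference between R2 and partner libraries. EIF5A was above EIF4G2 in each of the 6 vehicle libraries, but it was not the highest member in every library. In the control R2 vehicle library EIF5A was below EIF4G1 (92.9 and 93.7 FPKM). In the KO1 R2 vehicle library EIF5A (68.4 FPKM) was below EIF4G1 (96.95 FPKM), EIF2S3 (77.1 FPKM) and EIF3A (69.8 FPKM). The order of the other members also varied between libraries. EIF4G2 was above EIF2S3 in the control partner library (149 and 119 FPKM) and below it in the KO1 R2 library (48.7 and 77.1 FPKM). EIF4A1 averaged only 2.69 FPKM. Its span (chr17:7572706-7579005, forward strand) is overlapped on its own strand by the read-through gene SENP3-EIF4A1 (0 to 0.444 FPKM) and by small nucleolar RNA genes, and how reads shared by these genes were counted is not given in the sources used here. In all, 40 of the 51 spans are overlapped by another gene, 22 of them on the same strand. EIF3C and EIF3CL, EIF5A and EIF5AL1, EIF2S3 and EIF2S3L, and EIF1 and EIF1B are close copies, so their values are uncertain where reads fit either copy.

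Promoter sequence is shown for members that hold a motif of the knocked-out factor, since NFE2L1 binds DNA with small MAF proteins at sites of the type TGACNNNGC. RefSeq promoters (GRCh38.p14) matched 43 of the 51 members by symbol. The 8 not matched, and so not searched, were EIF2S2, EIF3A, EIF3CL, EIF3E, EIF3G, EIF3H, EIF3L and EIF4EBP1. In the 250 bases before the RefSeq start, searched on both strands, 9 of the 43 (20.9%) held TGACNNNGC, against 11% of all 27305 promoters in the table and 12.3% of the 8472 promoters of tested genes. The C/EBP-ATF type motif TGATGNAA was in 0 of the 43 (3.19% of all promoters, 1.2% of those of tested genes), and the heat shock type motif GAANNTTC was in 1, that of EIF4A2 (5.85% and 3.88%). None of the 43 matched promoters held more than 1 of the 3 motifs, and a match is a description of letters, not of binding. The windows of 29 bases, 5′ to 3′ on the gene's strand with the match in capitals (as its reverse complement where it lies on the other strand), are given for 8 of the 9. The ninth, EIF4E1B, had no reads.
EIF5, chr14:103334102-103334130, forward: aagatgcgatTGACGTCGCaagcgaacca
EIF5A2, chr3:170908777-170908805, reverse: gctcttcacgTGACTGGGCggagcctcgg
EIF2A, chr3:150546592-150546620, forward: accctcccaaGCTCTGTCAagcgtcgccc
EIF3J, chr15:44537061-44537089, forward: tcggctcggcGCACAGTCAgccacggtcc
EIF1AX, chrX:20142008-20142036, reverse: cctccctcccTGACTCCGCcttttccctg
EIF4G1, chr3:184314456-184314484, forward: ggctgtcacgTGACGGGGCgggggcaaat
EIF4G3, chr1:21111494-21111522, reverse: tgtcttaaagGCTGTGTCAcctggatagt
EIF4EBP2, chr10:70404077-70404105, forward: ccgccccgcgGCGACGTCAcctccggccg
The match began 125 bases before the start in EIF5, 158 in EIF5A2, 185 in EIF2A and 140 in EIF4G1. The stretch before a RefSeq start can lie within the gene as deposited. GENCODE 29 puts 235 of the 250 bases of EIF5, 227 of EIF4G3, 111 of EIF4G1 and 109 of EIF2A in exons of the same gene. It puts all 250 bases of EIF2A and 27 of EIF3J in exons of other genes. The EIF5, EIF4G3 and EIF3J windows lie inside the deposited spans. The EIF1 promoter held none of the 3 motifs and is shown for comparison, because EIF1 changed almost as much as EIF5.
EIF1, chr17:41688635-41688884, forward: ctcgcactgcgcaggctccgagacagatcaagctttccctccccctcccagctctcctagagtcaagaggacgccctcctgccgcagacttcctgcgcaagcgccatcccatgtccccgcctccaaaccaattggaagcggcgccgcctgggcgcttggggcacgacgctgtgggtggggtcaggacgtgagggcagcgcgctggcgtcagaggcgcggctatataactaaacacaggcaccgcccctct

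After bortezomib 9 to 14 members, eIF4E-binding proteins and other relatives included, were higher and 1 or 2 were lower in each line, by the fit with the replicate block. Averaged over the lines, EIF5 and EIF1, which act at start codon recognition, had the largest increases (1.35 and 1.24 on the log2 scale), and the scaffold gene EIF4G1 had the largest decrease (-0.81). In the main fit no member passed in any single line, where 0.467% (control), 0.238% (KO1) and 0.32% (KO2) of tested genes did. An unadjusted p under 0.05 was found for 0, 2 and 1 members, and for 1498, 1153 and 1169 of the 12194 tested genes. In the fit with the replicate block, 9 members rose and 1 fell in control cells (16.1% and 16.4% of tested genes), 14 rose and 2 fell in KO1 cells (13.9% and 13.8%), and 13 rose and 2 fell in KO2 cells (12.7% and 14.4%). Of these calls, 1 of 10 in control, 4 of 16 in KO1 and 3 of 15 in KO2 cells were kept whichever of the 12 libraries was left out. The kept calls were those of EIF5 in control, of EIF1, EIF3E, EIF5 and EIF5A2 in KO1 and of EIF1, EIF5 and EIF5A2 in KO2 cells. The share of members that rose, 19.6%, 30.4% and 28.3%, was above the share of all genes in the knockout lines and near it in control cells. The share that fell was below that of all genes in each line.

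Averaged over the 3 lines, the median log2 fold change of the 46 members was 0.22, against -0.01 over all tested genes. It was 0.18 in control, 0.29 in KO1 and 0.17 in KO2 cells, where the medians over all genes were -0.01, 0.00 and -0.02. As 1 contrast over the 3 lines, the main fit called EIF5 higher and EIF4G1 lower (4.85% and 6.76% of tested genes). Without the block, leaving out 1 library ended the EIF5 call in 10 of 12 omissions (adjusted p up to 0.131) and the EIF4G1 call in 12 of 12 (adjusted p up to 0.124). With the replicate block, 21 members rose and 5 fell (27.0% and 27.9% of tested genes). Of these 26 calls, 17 were kept whichever of the 12 libraries was left out, and EIF3A, EIF3D, EIF4A1, EIF4B, EIF4E, EIF4G2, EIF4G3, EIF4H and EIF5A lost theirs at least once. Setting each bortezomib library against the vehicle library of the same line and kind gave 6 pairs. In all 6, 24 members were higher (52.2%, against 24.8% of tested genes) and 4 were lower, EIF2B1, EIF4E, EIF4G1 and EIF4G3 (8.70%, against 23.8%). The median over members was 0.16 among partner libraries and 0.31 among R2 libraries, with -0.06 and 0.05 over all genes.

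**Figure D2:**
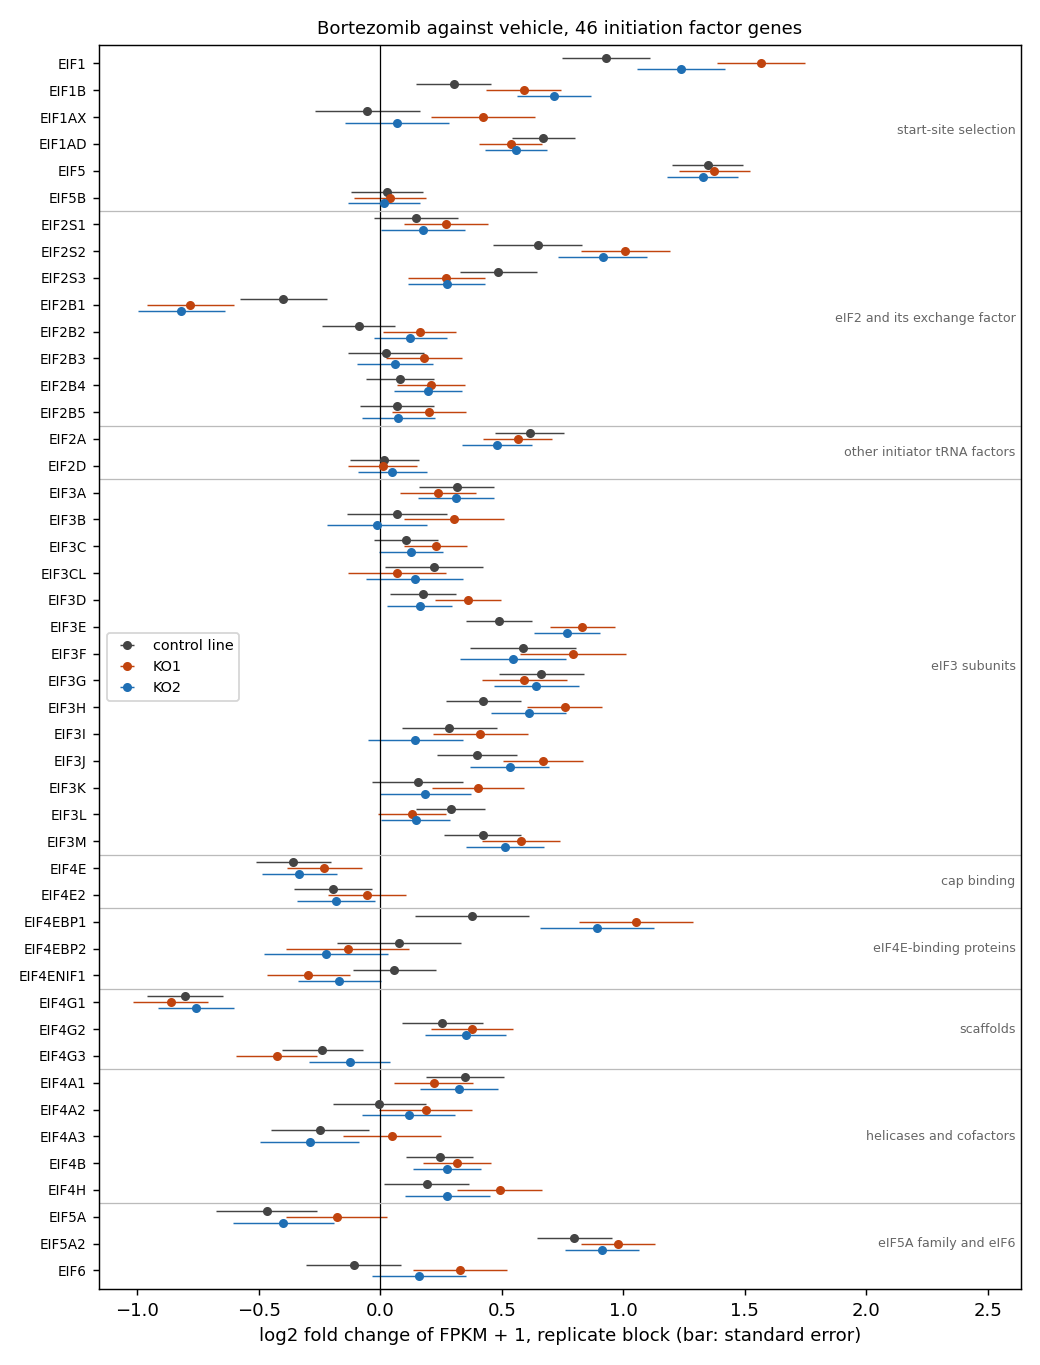
Log2 fold change of FPKM + 1, bortezomib against vehicle, in control, KO1 and KO2 cells (x axis), for the 46 tested initiation factor genes grouped by role (y axis), from the limma fit with the replicate block. Points are estimates and bars are standard errors; EIF5 and EIF1 lie farthest to the right and EIF4G1 lies left of 0 in each line.

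Among the factors of start codon selection, EIF5 encodes the GTPase activator of eIF2. It lies at chr14:103333544-103345025, forward strand. In vehicle, EIF5 was at 42.4, 45.2 and 45.1 FPKM in the partner libraries of control, KO1 and KO2 cells and at 22.7, 20.8 and 24.9 FPKM in their R2 libraries. After bortezomib it was at 119.8, 120.4 and 120.2 FPKM in the partner libraries and 54.2, 54.8 and 60.95 FPKM in the R2 libraries. Every bortezomib library was above every vehicle library, and each was 2.39 to 2.83 times its vehicle counterpart. The log2 fold changes were 1.35, 1.37 and 1.33 in control, KO1 and KO2 cells, and the smallest effect, in KO2, was 1.33 (SE 0.15, adjusted p = 0.000442) by limma with the replicate block. Averaged over the lines, limma without the block gave 1.35 (SE 0.38, adjusted p = 0.0472). EIF5 was the 1 member that kept its call in control cells whichever of the 12 libraries was left out of the blocked fit.

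EIF1 (chr17:41688885-41692668, forward strand) encodes the factor that holds the scanning complex open and guards against wrong start codons. Its vehicle libraries were at 118, 99.4 and 119.9 FPKM in the partner libraries of control, KO1 and KO2 cells and at 50.9, 42.9 and 63.3 FPKM in their R2 libraries. Its bortezomib libraries were at 184, 261 and 273 FPKM in the partner libraries and 121, 146 and 156 FPKM in the R2 libraries. The groups did not overlap, although the lowest bortezomib library (120.5 FPKM) was just above the highest vehicle library, and each bortezomib library was 1.55 to 3.41 times its counterpart. EIF1 rose by 0.93, 1.57 and 1.24 log2 units in control, KO1 and KO2 cells, with 0.93 (SE 0.18, adjusted p = 0.00510) in control cells by limma with the block. That control value lost its call without either R2 library of the control line (adjusted p up to 0.0945), and the calls in KO1 and KO2 cells were kept in all 12 omissions.

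The remaining members of that group behaved unequally. EIF1B, a close copy of EIF1, rose in KO1 (0.59) and KO2 cells (0.72) and had 0.30 in control cells without passing. EIF1AD, an eIF1A-domain gene, rose in the 3 lines by 0.67, 0.54 and 0.56. EIF1AX, the eIF1A that works with eIF1 in scanning, had -0.05, 0.42 and 0.07, and EIF5B, the GTPase of subunit joining, had 0.03, 0.04 and 0.02. Neither passed in any line. Of the 6 genes of this group 4 rose in the average over lines (27.0% of all tested genes did), with a median of 0.56. The 4 include EIF1AD, whose part in start codon choice was not examined here.

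In the eIF2 group, the beta subunit gene EIF2S2 rose in each of the 3 lines, and its values are given in full for that reason. EIF2S2 vehicle libraries were at 88.6, 78.8 and 77.2 FPKM in the partner libraries of control, KO1 and KO2 cells and at 26.4, 24.6 and 37.2 FPKM in their R2 libraries. Its bortezomib libraries were at 127, 144 and 146 FPKM in the partner libraries and 46.3, 56.1 and 71.4 FPKM in the R2 libraries. Each bortezomib library was 1.43 to 2.28 times its counterpart, while the R2 bortezomib libraries were below all the vehicle partner libraries in level. EIF2S2 rose by 0.65, 1.01 and 0.91 in control, KO1 and KO2 cells, with 0.65 (SE 0.18, adjusted p = 0.0249) in control cells. In none of the lines was the EIF2S2 call kept in every omission of a library. Over the omissions its log2 value ran from 0.51 to 0.79 in control, 0.75 to 1.26 in KO1 and 0.76 to 1.07 in KO2 cells. The alpha subunit gene EIF2S1, whose product the stress kinases phosphorylate, was at 28.5, 27.7 and 28.3 FPKM in the partner libraries of control, KO1 and KO2 cells and at 11.1, 8.28 and 12.2 FPKM in their R2 libraries without drug. With bortezomib EIF2S1 was at 32.3, 28.3 and 29.7 FPKM in the partner libraries and 12.2, 12.2 and 15.1 FPKM in the R2 libraries, and vehicle and bortezomib libraries overlapped. Each bortezomib library was 1.02 to 1.48 times its counterpart, higher in 6 of 6 pairs. EIF2S1 had log2 fold changes of 0.15, 0.27 and 0.18 and passed in none of the lines. The gamma subunit gene EIF2S3 rose in control cells (0.49, adjusted p = 0.0426 by limma with the block) and had 0.27 in KO1 and 0.27 in KO2 cells without passing. That control call was lost in 8 of 12 omissions of a library (adjusted p up to 0.401).

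eIF2B is the exchange factor that recharges eIF2 with GTP, and its alpha subunit gene EIF2B1 went the other way. EIF2B1 was at 14.8, 20.96 and 22.1 FPKM in the partner libraries of control, KO1 and KO2 cells and at 9.42, 13.5 and 14.7 FPKM in their R2 libraries. With bortezomib it was at 9.09, 10.2 and 10.2 FPKM in the partner libraries and 8.42, 8.66 and 9.43 FPKM in the R2 libraries. It was lower than its vehicle counterpart in each of the 6 pairs, at 0.459 to 0.894 times. EIF2B1 fell by 0.78 in KO1 cells (SE 0.18, adjusted p = 0.0126) and by 0.82 in KO2 cells (SE 0.18, adjusted p = 0.0110), and was at -0.40 (SE 0.18, adjusted p = 0.119) in control cells, by limma with the block. The bortezomib libraries of EIF2B1 lay between 8.42 and 10.2 FPKM. Neither of its calls was kept in every omission of a library. The genes of the other subunits did not pass in any line. EIF2B2 had -0.09, 0.16 and 0.12, EIF2B3 0.02, 0.18 and 0.06, EIF2B4 0.08, 0.21 and 0.20 and EIF2B5, the catalytic subunit, 0.07, 0.20 and 0.08. EIF2B5 was at 7.82, 7.19 and 7.89 FPKM in the partner libraries of control, KO1 and KO2 cells and at 5.76, 6.80 and 5.63 FPKM in their R2 libraries. With bortezomib EIF2B5 was at 7.14, 8.37 and 7.33 FPKM in the partner libraries and 7.07, 8.02 and 6.86 FPKM in the R2 libraries, which overlapped the vehicle values. The deposited span of EIF2B5 covers EIF4G1, so its level of 6.85 FPKM is uncertain.

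EIF2A and EIF2D encode factors that can place initiator tRNA without eIF2. EIF2A rose in the 3 lines, by 0.62, 0.57 and 0.48, with 0.48 (SE 0.14, adjusted p = 0.0358) in KO2 cells. Its bortezomib libraries were 1.40 to 1.58 times their vehicle counterparts. In none of the lines was the EIF2A call kept in every omission of a library, where its log2 value in KO2 cells ran from 0.37 to 0.59. EIF2D had 0.02, 0.01 and 0.05 and did not pass.

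All 14 eIF3 subunit genes had a positive mean fold change over the lines, with a median of 0.28, and 8 of them rose, where 49.3% of all tested genes were positive and 27.0% rose. EIF3E and EIF3G rose in each line, EIF3E by 0.49, 0.83 and 0.77 and EIF3G by 0.66, 0.59 and 0.64. EIF3H, EIF3J and EIF3M rose in both knockout lines, by 0.76, 0.67 and 0.58 in KO1 and by 0.61, 0.53 and 0.51 in KO2 cells, and had 0.42, 0.40 and 0.42 in control cells without passing. The calls of these 3 genes were lost in 1, 3 and 3 of 12 omissions of a library in KO1 and in 4, 10 and 6 in KO2 cells (adjusted p up to 0.158 and 0.296). EIF3F rose in KO1 cells (0.79) and had 0.59 in control and 0.55 in KO2 cells without passing. The mean knockout response was tested against the control response as the interaction given further on, which no member passed. EIF3A and EIF3D rose only in the contrast averaged over lines (0.29 and 0.23).

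EIF3A encodes the large scaffold subunit of eIF3 and shows how the libraries split. In vehicle it was at 84.3, 93.04 and 85.8 FPKM in the partner libraries of control, KO1 and KO2 cells and at 65.3, 69.8 and 63.9 FPKM in their R2 libraries. With bortezomib it was at 116, 124 and 116 FPKM in the partner libraries and 73.98, 73.1 and 73.1 FPKM in the R2 libraries. Among partner libraries the bortezomib values stood well above vehicle, and among R2 libraries the gap was smaller, with mean log2 differences of 0.43 and 0.14. EIF3B (0.07, 0.30 and -0.01), EIF3C (0.11, 0.23 and 0.13), EIF3CL (0.22, 0.07 and 0.14), EIF3I (0.28, 0.41 and 0.14), EIF3K (0.15, 0.40 and 0.19) and EIF3L (0.29, 0.13 and 0.15) did not pass in any line or in the average.

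EIF4E, the cap-binding protein's own gene, was at 4.76, 5.06 and 5.24 FPKM in the partner libraries of control, KO1 and KO2 cells and at 2.06, 1.84 and 2.55 FPKM in their R2 libraries. With bortezomib it was at 3.23, 3.43 and 3.69 FPKM in the partner libraries and 1.55, 1.82 and 1.98 FPKM in the R2 libraries. EIF4E was lower in each of the 6 pairs, at 0.678 to 0.992 times, with overlapping levels across library kinds. It passed in none of the lines (-0.36, -0.23 and -0.33) and fell in their average, -0.31 (SE 0.09, adjusted p = 0.0167) by limma with the block. EIF4E2, a cap-binding relative that does not join eIF4G, had -0.19, -0.05 and -0.18 and did not pass.

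The eIF4E-binding proteins compete with eIF4G for eIF4E and block cap-dependent initiation when they are not phosphorylated. EIF4EBP1 was at 78.7, 59.9 and 73.6 FPKM in the partner libraries of control, KO1 and KO2 cells and at 23.7, 15.4 and 23.6 FPKM in their R2 libraries without drug. With bortezomib it was at 90.4, 93.3 and 108 FPKM in the partner libraries and 35.4, 44.3 and 56.9 FPKM in the R2 libraries. It was 1.15 to 2.89 times its counterpart over the 6 pairs. EIF4EBP1 rose in KO1 (1.05, SE 0.23, adjusted p = 0.0112) and KO2 cells (0.89, SE 0.23, adjusted p = 0.0231) and was at 0.38 (SE 0.23, adjusted p = 0.246) in control cells, by limma with the block. Neither call was kept in every omission of a library. Over the omissions the log2 value ran from 0.70 to 1.40 in KO1 and 0.59 to 1.19 in KO2 cells. EIF4EBP2 had 0.08, -0.13 and -0.22 and did not pass. EIF4ENIF1, which carries eIF4E into the nucleus, was at 3.15, 3.54 and 3.18 FPKM in the partner libraries of control, KO1 and KO2 cells and at 2.17, 2.43 and 2.47 FPKM in their R2 libraries. With bortezomib EIF4ENIF1 was at 3.21, 3.02 and 2.37 FPKM in the partner libraries and 2.38, 1.58 and 2.41 FPKM in the R2 libraries. Its groups overlapped, and it did not pass (0.06, -0.29 and -0.17).

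EIF4G1 (chr3:184314495-184335358, forward strand) encodes the main scaffold that joins eIF4E, eIF4A and eIF3. In vehicle EIF4G1 was at 88.7, 106 and 97.1 FPKM in the partner libraries of control, KO1 and KO2 cells and at 93.7, 96.95 and 86.5 FPKM in their R2 libraries, and R2 minus partner was 0.08, -0.13 and -0.16 on the log2 scale. With bortezomib it was at 58.7, 62.9 and 59.3 FPKM in the partner libraries and 45.8, 48.6 and 48.8 FPKM in the R2 libraries. All 6 bortezomib libraries lay below all 6 vehicle libraries, at 0.489 to 0.661 times their counterparts. EIF4G1 fell by 0.80, 0.86 and 0.76 log2 units in control, KO1 and KO2 cells, with -0.80 (SE 0.15, adjusted p = 0.00501) in control cells, and the average over lines passed without the block too (-0.81, SE 0.22, adjusted p = 0.0415, limma). In none of the lines was the EIF4G1 call with the block kept in every omission of a library. In control cells it was lost without either R2 library of that line. Over the omissions the log2 value ran from -1.02 to -0.59 in control, -0.95 to -0.77 in KO1 and -0.80 to -0.71 in KO2 cells. The call of the average without the block was lost in every omission.

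Its relatives differed from it. EIF4G3 was lower in 6 of 6 pairs, passed in none of the lines (-0.24, -0.43 and -0.12) and fell in their average (-0.26, adjusted p = 0.0426 by limma with the block). EIF4G2, an eIF4G relative that lacks the eIF4E-binding part, was higher in 6 of 6 pairs and rose in the average (0.33).

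Of the 5 genes of eIF4A helicases and their cofactors, 3 rose in the average over lines (27.0% of all tested genes did) and 0 passed in any single line, where 12.7 to 16.1% of tested genes rose. EIF4A1 was at 2.18, 1.25 and 1.25 FPKM in the partner libraries of control, KO1 and KO2 cells and at 3.15, 4.43 and 3.87 FPKM in their R2 libraries. With bortezomib EIF4A1 was at 2.31, 1.67 and 1.81 FPKM in the partner libraries and 5.45, 5.21 and 5.12 FPKM in the R2 libraries. It was higher in each pair, at 1.06 to 1.73 times, and it rose in the average over lines (0.30, SE 0.09, adjusted p = 0.0229) though in no single line (0.35, 0.22 and 0.32). EIF4B and EIF4H, which stimulate eIF4A, rose in the average by 0.28 and 0.32. EIF4A2 (-0.003, 0.19 and 0.12) and EIF4A3, an eIF4A relative of the exon junction complex (-0.25, 0.05 and -0.29), did not pass.

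eIF5A helps ribosomes over difficult peptide bonds, and eIF6 keeps the large subunit from joining too early. EIF5A2, the less abundant eIF5A gene here, was at 3.16, 2.89 and 2.08 FPKM in the partner libraries of control, KO1 and KO2 cells and at 1.20, 0.925 and 1.10 FPKM in their R2 libraries. With bortezomib EIF5A2 was at 6.44, 6.43 and 5.55 FPKM in the partner libraries and 2.72, 2.90 and 2.52 FPKM in the R2 libraries. Each bortezomib library was 2.04 to 3.14 times its counterpart, and the scale understates this change because the gene is low. EIF5A2 rose by 0.80, 0.98 and 0.91 in control, KO1 and KO2 cells, with 0.80 (SE 0.15, adjusted p = 0.00472) in control cells.

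EIF5A, the abundant copy, was at 208, 204 and 229.7 FPKM in the partner libraries of control, KO1 and KO2 cells and at 92.9, 68.4 and 92.1 FPKM in their R2 libraries. With bortezomib EIF5A was at 157, 153 and 138 FPKM in the partner libraries and 64.04, 71.3 and 88.1 FPKM in the R2 libraries. It was lower in 5 of 6 pairs. EIF5A did not pass in any line (-0.47, -0.18 and -0.40) and fell in the average (-0.35, SE 0.12, adjusted p = 0.0342), a call lost in 10 of 12 omissions of a library. EIF6 was at 52.6, 58.3 and 56.9 FPKM in the partner libraries of control, KO1 and KO2 cells and at 28.8, 21.4 and 21.8 FPKM in their R2 libraries. With bortezomib EIF6 was at 48.7, 65.4 and 49.3 FPKM in the partner libraries and 26.7, 30.5 and 31.8 FPKM in the R2 libraries. Its groups overlapped, and it did not pass (-0.11, 0.33 and 0.16).

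**Figure D3:**
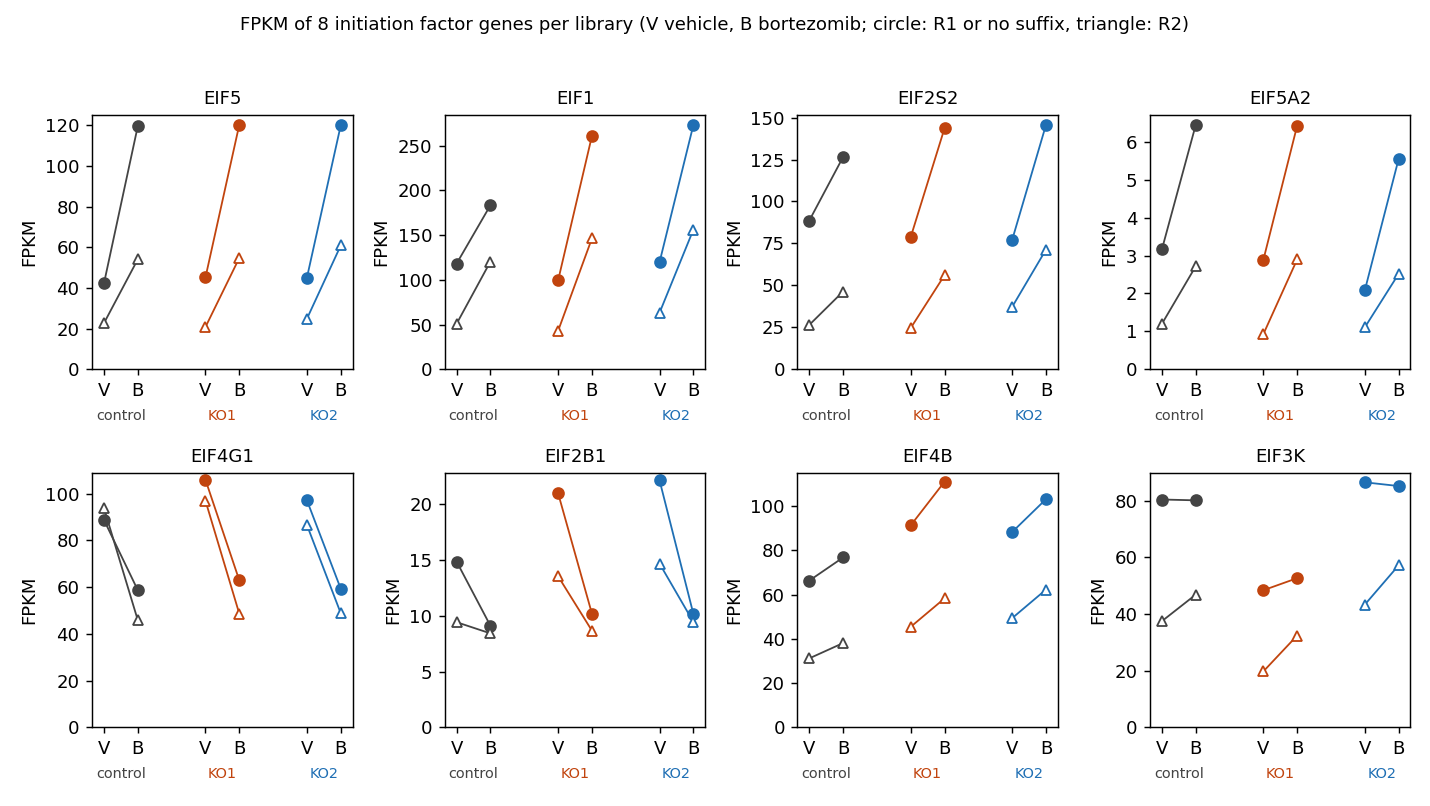
FPKM of 8 initiation factor genes in each of the 12 libraries (y axis, linear, from 0; x axis, vehicle V and bortezomib B in control, KO1 and KO2 cells). Circles are partner libraries, triangles are R2 libraries, and lines join libraries of the same line and kind; EIF5 goes from 20.8 to 45.2 FPKM in vehicle to 54.2 to 120.4 FPKM in bortezomib, and EIF4G1 goes the other way.

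The 5 members under the filter were not tested. EIF4E1B, a germ-line relative of EIF4E, had 0 reads in all 12 libraries, where 3 reads is the floor that a count of 0 allows. EIF2S3L, EIF4EBP3 and EIF5AL1 stayed below 1 FPKM in every library. EIF4E3, another cap-binding relative, was at 0.499 and 0.283 FPKM in the control vehicle libraries (partner, then R2) and at 1.83 and 0.823 FPKM in the control bortezomib libraries. Its KO1 libraries ran from 0.0350 to 0.337 FPKM and its KO2 libraries from 0.294 to 0.891 FPKM.

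For the wider pathway, 28 partner genes of initiation, elongation and termination were followed, of which 26 were tested. With the replicate block, 5 rose and 3 fell in control, 4 rose and 1 fell in KO1, and 4 rose and 2 fell in KO2 cells, with 9 and 5 in the average over lines. Of all tested genes 16.1% rose and 16.4% fell in control, 13.9% and 13.8% in KO1, 12.7% and 14.4% in KO2 cells and 27.0% and 27.9% in the average. The 4 genes that passed in each line are named, chosen after their values were seen. MKNK2, an eIF4E kinase, rose by 1.37, 1.21 and 1.38. EEF2K, the kinase of elongation factor 2, fell by 1.03, 1.14 and 1.21. EEF2 itself and the release factor gene ETF1 rose in each line, by 0.54, 0.78 and 0.62 and by 0.54, 0.95 and 0.74.

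Of the 46 members, 1 differed between the knockout lines together and the control line, EIF4B, and it did so only in the fit with the replicate block. In vehicle, 0 members passed in the main fit for KO1, KO2 or their mean against control, with 0.213%, 0.23% and 0.344% of tested genes. An unadjusted p under 0.05 was found there for 0 members, and for 538, 433 and 561 of the 12194 tested genes. In the blocked fit, 0 members passed for KO1 or KO2 alone (5.95% and 4.91% of tested genes). There 3 and 2 members had an unadjusted p under 0.05, as did 2646 and 2328 of the 12194 tested genes. For the mean of KO1 and KO2 1 member passed, EIF4B (6.18%). The median over members was 0.03 and that over all genes 0.05. Since R1 and unnumbered libraries each belong to 1 genotype, the blocked level of a knockout comparison comes from the R2 libraries.

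EIF4B (chr12:53006158-53042209, forward strand) encodes the cofactor that stimulates the eIF4A helicase. In vehicle it was at 66.3, 91.2 and 88.2 FPKM in the partner libraries of control, KO1 and KO2 cells and at 31.2, 45.4 and 49.3 FPKM in their R2 libraries. In bortezomib it was at 76.7, 111 and 103 FPKM in the partner libraries and 38.1, 58.2 and 62.2 FPKM in the R2 libraries. Within a kind of library, every knockout library was above its control counterpart, at 1.33 to 1.63 times, although control partner libraries lay above the knockout R2 libraries. Each control library is the counterpart of both a KO1 and a KO2 library, so these ratios are not independent. No share over all tested genes was computed for them, and EIF4B was not the only member on 1 side in each comparison. EIF2B1 (1.03 to 1.56 times) and EIF4EBP2 were also above control throughout. EIF2B4 (0.643 to 0.940 times), EIF4E2 (0.678 to 0.954 times) and EIF5B were below it throughout. The mean of the knockout lines was 0.59 (SE 0.15, adjusted p = 0.0492) higher in vehicle and 0.64 (SE 0.15, adjusted p = 0.0329) in bortezomib by limma with the block, beside 0.51 (SE 0.54, adjusted p = 1) and 0.56 (SE 0.54, adjusted p = 1) without it. Under bortezomib EIF4B was again the 1 member that passed (7.66% of tested genes). In the main fit 0 members and 0.164% of tested genes passed there. An unadjusted p under 0.05 was found in that fit for 0 members and for 697 of the 12194 tested genes. The vehicle call was lost in 10 and the bortezomib call in 9 of 12 omissions of a library (adjusted p up to 0.554 and 0.225), and both were lost with a common FPKM sum and the block (adjusted p = 0.117 in vehicle).

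Other members with the highest or lowest mean knockout difference in vehicle, as ranked in the main fit, did not pass. In the fit with the block EIF2B4 was not among the 3 lowest. EIF2B1 had a mean knockout difference in vehicle of 0.51 (SE 0.19, adjusted p = 0.156) with the block and EIF4EBP2 one of 0.50 (SE 0.27, adjusted p = 0.328). EIF4EBP2 was at 6.67, 11.04 and 9.22 FPKM in the partner libraries of control, KO1 and KO2 cells and at 3.59, 4.05 and 6.52 FPKM in their R2 libraries, so its vehicle libraries overlapped between lines. Within a kind of library EIF4EBP2 was above control in each of 8 comparisons over both treatments, at 1.10 to 1.82 times. Each control library enters these comparisons for both KO1 and KO2, so they are not independent. Among partner libraries they set R1 knockout libraries against unnumbered control libraries. No share over all tested genes was computed for them. With bortezomib EIF4EBP2 was at 6, 6.58 and 6.80 FPKM in the partner libraries and 4.60, 5.66 and 6.24 FPKM in the R2 libraries. EIF5B was at 37.4, 27.1 and 31.03 FPKM in the partner libraries of control, KO1 and KO2 cells and at 19.6, 12 and 16.3 FPKM in their R2 libraries. With bortezomib EIF5B was at 43.2, 28.1 and 31.6 FPKM in the partner libraries and 17.6, 12.3 and 16.4 FPKM in the R2 libraries. The knockout value of EIF5B was below its control counterpart in each of 8 such comparisons, at 0.613 to 0.932 times. Its mean knockout difference in vehicle was -0.37 (SE 0.16, adjusted p = 0.208) by limma with the block. EIF2B4 was at 8.70, 5.60 and 6.38 FPKM in the partner libraries of control, KO1 and KO2 cells and at 6.73, 5.92 and 5.85 FPKM in their R2 libraries. With bortezomib EIF2B4 was at 8.31, 7.27 and 6.78 FPKM in the partner libraries and 8, 6.38 and 7.53 FPKM in the R2 libraries. The control values of EIF2B4 were the highest of the 3 lines within each kind of vehicle library, and its mean knockout difference there was -0.24 (SE 0.15, adjusted p = 0.404).

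**Figure D4:**
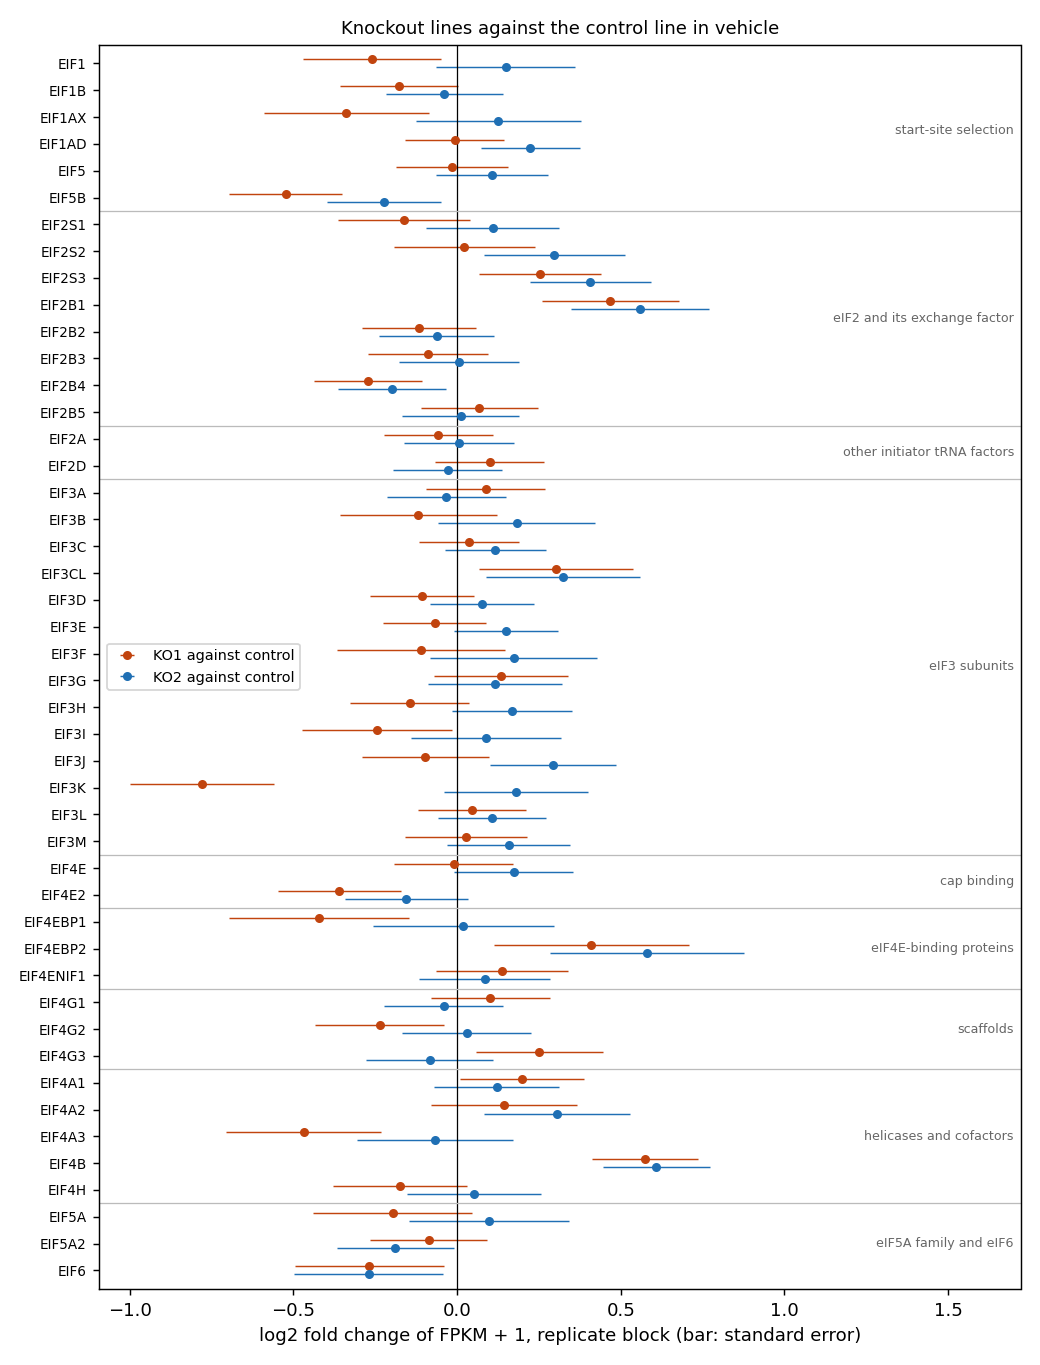
Log2 fold change of FPKM + 1 in vehicle, KO1 and KO2 against the control line (x axis), for the 46 tested initiation factor genes by role (y axis), from the limma fit with the replicate block. Points are estimates and bars are standard errors; EIF4B lies right of 0 in both lines, and EIF3K lies at -0.78 in KO1 and 0.18 in KO2.

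EIF3K separated the knockout lines from each other. It encodes a small accessory subunit of eIF3 and lies at chr19:38619082-38636955, forward strand. In vehicle EIF3K was at 80.5, 48.4 and 86.5 FPKM in the partner libraries of control, KO1 and KO2 cells and at 37.5, 19.8 and 43.4 FPKM in their R2 libraries. In bortezomib it was at 80.2, 52.7 and 85.2 FPKM in the partner libraries and 46.9, 32.5 and 57.2 FPKM in the R2 libraries. KO1 was below both other lines within each kind of library, at 0.528 to 0.692 times control, while KO2 was at 1.06 to 1.22 times control. KO1 minus KO2 in vehicle was -0.96 (SE 0.19, adjusted p = 0.0306) by limma with the block, the 1 member that passed (3.0% of tested genes), and -0.96 (SE 0.61, adjusted p = 1) without it (0.0656%). In bortezomib the same difference was -0.74 (SE 0.19, adjusted p = 0.0982) by limma with the block, and 0 members passed (1.82% of tested genes). An unadjusted p under 0.05 was found there for 1 member and for 1617 of the 12194 tested genes. KO1 against control was -0.78 (SE 0.22, adjusted p = 0.0754) and KO2 against control 0.18 (SE 0.22, adjusted p = 0.705). The vehicle call was lost in 5 of 12 omissions of a library (adjusted p up to 0.285).

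The test of whether the response to bortezomib differed between knockout and control cells called no member. This interaction, the mean knockout response minus the control response, passed for 0 of 46 members and 0.0% of tested genes in the main fit, and for 0 members and 0.0% of genes with the replicate block. In both fits 0 members had an unadjusted p under 0.05, where 115 (main fit) and 1305 (replicate block) of the 12194 tested genes did. The highest values were those of EIF4EBP1 (0.59, SE 0.29, adjusted p = 0.503), EIF1 (0.47, SE 0.22, adjusted p = 0.492) and EIF6 (0.35, SE 0.24, adjusted p = 0.656) by limma with the block. The lowest were EIF2B1 (-0.40, SE 0.22, adjusted p = 0.567), EIF4ENIF1 (-0.29, SE 0.21, adjusted p = 0.683) and EIF4EBP2 (-0.26, SE 0.31, adjusted p = 0.829). EIF5, which rose most on average, had an interaction of 0.00 (SE 0.18).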

How the data were processed

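The authors deposited 1 table of FPKM per gene for 12 libraries, with gene lengths and positions. The submitters' processing notes name CASAVA, STAR 2.5, HTSeq 0.6.1, DESeq2 and hg19, with no role or order. All 51 member IDs are in GENCODE 29, and 48 have the same GRCh38 position there, so positions are given as in the table, on GRCh38. FPKM times length gave whole reads (tolerance 0.01) for 100% of the deposited values, and these reads gave the depths. Groups came from the labels. limma 3.58.1 (R 4.3.3; lmFit, contrasts.fit, eBayes with trend) was fitted to log2(FPKM + 1) of the 12194 genes that averaged at least 1 FPKM, with 6 group means and Benjamini-Hochberg adjustment over all of them. The pseudocount of 1 makes fold changes of low genes too small.

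The suffix paired the libraries: deviations of same-kind libraries correlated in all 15 pairs of groups (Pearson's r 0.696 to 0.890 across genes, median 0.811), with unnumbered and R1 libraries taken as 1 kind. The replicate block had R1, R2 and no number as 3 levels. The contrast averaged over 3 lines and KO1 against KO2 were added after the data were seen. Alternatives were other pseudocounts, filters, scalings, voom on the recovered reads and leaving out each library. Members, roles, partner genes and motifs were chosen with earlier results of these data known. Every member is named. Full values are given for role representatives and for the 3 highest and 3 lowest members of 3 contrasts, ranked by the main fit. They are also given for members called without the block, and for EIF2S2, chosen after its values were seen. Tables and figures used Python 3.11.15, pandas 2.3.3 and matplotlib 3.10.9. The scripts were tested on simulated data.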

Additional observations from a re-analysis of the deposited data

Results flagged for a closer look

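EIF3K in vehicle differed between the knockout lines, with KO1 minus KO2 at -0.96 on the log2(FPKM + 1) scale, by a limma test of that difference with the replicate block (SE 0.19, adjusted p = 0.0306). It is listed because lines with the same knocked-out gene moved apart, KO1 below control and KO2 at or above it.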

How the results depend on the processing

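The members called depended above all on the replicate block. With the replicate block by title suffix, 10 members passed for bortezomib in control, 16 in KO1, 15 in KO2 and 26 in the average over lines, against 0, 0, 0 and 2 without it. Counting unnumbered libraries as R1 gave 9, 16, 15 and 25. With voom on recovered reads and the block they were 14, 18, 16 and 28, with a common FPKM sum and the block 10, 16, 15 and 25, with quantile normalization and the block 15, 16, 16 and 26, and without mitochondrial genes and with the block 11, 16, 15 and 26. Without the block, the average over lines had 1 call with no filter, 0 at a mean FPKM of at least 5, 0 with a common FPKM sum, and 6 with quantile normalization or without mitochondrial genes. KO1 against control in vehicle had 0 calls with the block by title suffix, 2 with unnumbered libraries counted as R1 or with voom and block, and 1 with quantile or mitochondrial-free block. KO2 against control had 1 with voom or quantile and block. The mean knockout difference had 1 call in vehicle and 1 in bortezomib under every block setting except the common FPKM sum, which gave 0. KO1 against KO2 in vehicle had 1 call under each block setting, and in bortezomib 1 with voom and block. For bortezomib in control, KO1, KO2 and the average over lines, the block by title suffix called 32.4%, 27.7%, 27.0% and 54.9% of all tested genes. Without the block these shares were 0.467%, 0.238%, 0.32% and 11.6%. Shares over all genes are not given for the other settings or for the omissions below, so those counts are not results about the members.

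Leaving out 1 library at a time gave, without the block, 0 calls in every contrast except the average over lines (0 to 2). With the block it gave 2 to 13 in control, 5 to 20 in KO1, 3 to 16 in KO2, 19 to 28 in the average, 0 to 2 for the mean knockout difference in vehicle, 0 to 1 in bortezomib, 0 to 1 for KO1 or KO2 against control, and 0 to 1 for KO1 against KO2 in vehicle. There, 1 of 10, 4 of 16, 3 of 15 and 17 of 26 bortezomib calls were kept in all 12 omissions. EIF5 and EIF4G1 averaged over lines without the block lost their calls in most omissions (adjusted p up to 0.131 and 0.124). Without the block, these changed sign in at least 1 omission: the interaction of EIF1 (-0.13 to 1.07), EIF4EBP1 (-0.25 to 1.44), EIF4EBP2 (-0.63 to 0.12) and EIF6 (-0.070 to 0.78), the averaged bortezomib effect of EIF2S1 (-0.074 to 0.47) and EIF6 (-0.11 to 0.36), the knockout difference of EIF3K (-0.87 to 0.21), EIF4B (-0.023 to 1.04) and EIF5B (-0.86 to 0.044), and bortezomib in control for EIF5A (-1.11 to 0.17). Each omission leaves a group with 1 kind of library, which the fit without the block does not adjust for. Depth limits mainly the low members: EIF3CL rested on 30 to 89 reads per library.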
